A study of Homo sapiens with 12 samples.

Results

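Keratins and epithelial markers of Merkel cells were followed in MKL-1, an established line from a Merkel cell carcinoma, under EPZ011989, an inhibitor of the histone methyltransferase EZH2. The 9 genes were taken by symbol. They were the simple-epithelium keratin genes KRT20, KRT8, KRT18, KRT19 and KRT7, the adhesion genes EPCAM, CDH1 and CDH3, and the mechanosensitive channel gene PIEZO2. They stood among 35376 genes summed, and 8 of them were among the 15063 genes with enough reads to be tested. KRT7 was the member left untested.

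Keratins form intermediate filaments as obligate pairs of a type I and a type II chain, and in simple epithelia the type II chain KRT8 pairs with the type I chains KRT18, KRT19 and KRT20. Merkel cells are touch-sensing cells of the basal epidermis that carry these simple keratins, and KRT20 is the keratin by which pathologists separate Merkel cell carcinoma from other small cell tumours, which more often carry KRT7 or lack KRT20. Merkel cells are held to neighbouring keratinocytes by cadherins, and they open PIEZO2, a stretch-gated cation channel, when the skin is indented.

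The 4 groups held 3 libraries each. Treated cells received 3 µM EPZ011989 in 1% ethanol for 6 or 12 days, and vehicle cells received 1% ethanol for the same times, so ethanol was common to all groups. Medium was renewed every 3 days, and the cells came from 1 line, which is a limit on the groups as a model of the tumour. No label states that the 3 libraries of a group came from separate cultures, and each p-value therefore reflects only how much these libraries vary, which can be technical variation. In bulk RNA, fewer cells of a kind and less RNA per cell cannot be told apart.

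Each library held 15994997 to 20866370 estimated reads, at which 3 reads of a gene corresponded to 0.146 to 0.191 CPM (counts scaled to a common library size). All 9 Merkel markers had reads in all groups, with ATOH1 or POU4F3 highest, and their summed level was 2185 to 2256 TPM (reads scaled by transcript length and library size) in treated and 2586 to 2639 TPM in vehicle cells at day 6. At day 12 it was 2367 to 2423 TPM in treated and 2459 to 2676 TPM in vehicle cells. Keratinocyte markers summed to 11.4 to 27.6 TPM over all groups, and KRT1 and IVL were at 0 in each group. Summed fibroblast markers were at 27.1 to 35.6 TPM in treated and 15.5 to 18.2 TPM in vehicle cells at day 6, and at 23.3 to 26.1 TPM in treated and 7.94 to 22.6 TPM in vehicle cells at day 12. Most of that level was DCN, and its part in the results below was not tested. Leukocyte markers summed to at most 5.65 TPM and endothelial markers to at most 1.17 TPM in any library. EZH2 was at 138 CPM in treated and 153.5 CPM in vehicle cells at day 6, and at 59.4 CPM in treated and 171 CPM in vehicle cells at day 12, with log2 fold changes of -0.16 and -1.53 (edgeR adjusted p of 0.0251 and 6.36e-13). On the third principal component the first vehicle library of day 12 was far from the others (-36.2, against -12.7 and 2.36 in the other day 12 vehicle libraries), and the calls and list counts that changed without it are also given without it.

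The members spanned a wide range of levels. Per length, KRT8 was the highest of them in each group, at 454 ± 14.5 TPM in treated and 535 ± 16.4 TPM in vehicle cells at day 6, and at 515 ± 15.4 TPM in treated and 526 ± 21.2 TPM in vehicle cells at day 12 (mean ± SD, n = 3). KRT20 followed, at 238 ± 3.76 TPM in treated and 342 ± 8.75 TPM in vehicle cells at day 6, and at 238 ± 13.4 TPM in treated and 321 ± 11.9 TPM in vehicle cells at day 12. Below this pair the order differed between treated and vehicle cells.

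In vehicle cells at day 12 EPCAM came next at 262 ± 32.1 TPM, then KRT18 at 128 ± 4.36, KRT19 at 100.1 ± 6.67, PIEZO2 at 74.3 ± 11.7, CDH3 at 64.0 ± 9.63 and CDH1 at 3.30 ± 0.516 TPM (SD, n = 3). PIEZO2 and CDH3 overlapped in range there. In treated cells at day 12 the order below KRT20 was KRT18 at 177 ± 3.46 TPM, EPCAM at 105 ± 6.12, CDH3 at 69.1 ± 6.25, PIEZO2 at 44.0 ± 5.29, KRT19 at 24.3 ± 2.48 and CDH1 at 12.0 ± 4.40 TPM, with no overlap between neighbours. The PIEZO2 values cover part of its transcripts, as described with that gene. KRT7 averaged 0.499 TPM in treated and 0.156 TPM in vehicle cells at day 12.

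**Figure D1:**
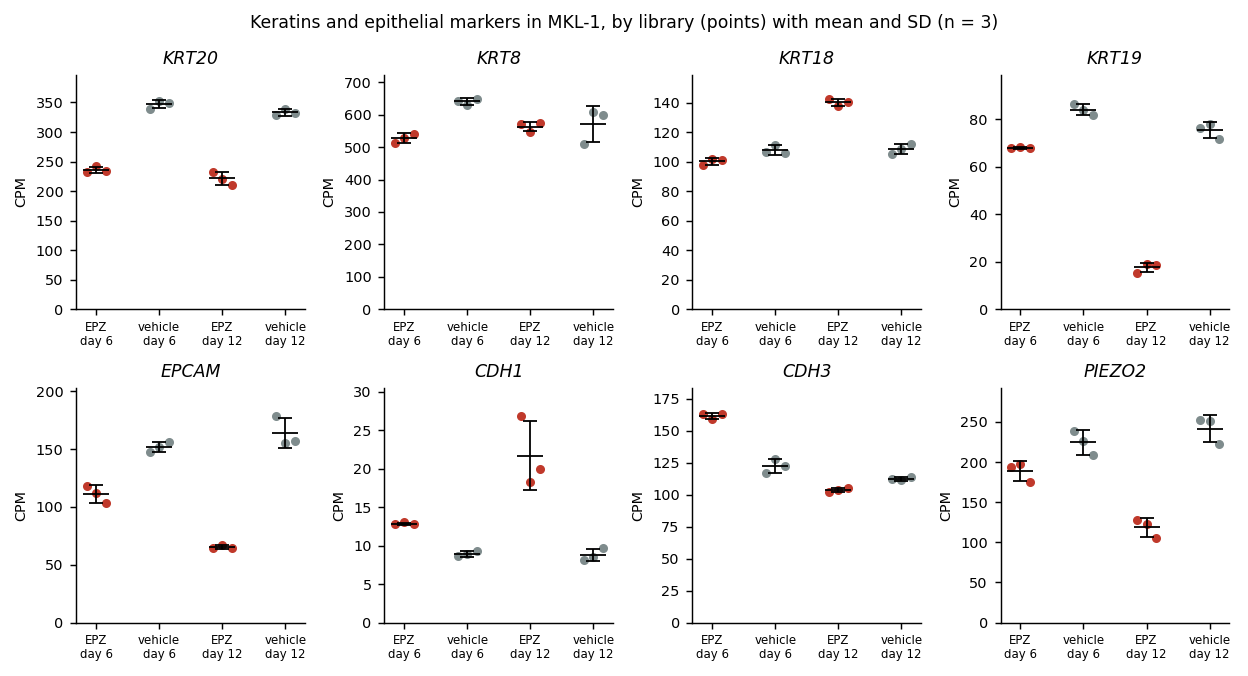
CPM of the 8 tested members in each library, with EPZ011989 libraries in red and vehicle libraries in grey at days 6 and 12, and bars for the mean and SD of 3 libraries. KRT20 and EPCAM lay lower in each treated library than in each vehicle library of the same day, KRT19 fell to 15.2 to 18.98 CPM in treated cells at day 12, and CDH1 was higher in each treated library.

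Cells under EPZ011989 had lower levels of KRT20, KRT19, EPCAM and PIEZO2 and a higher level of CDH1 at both days. KRT18 and CDH3 each had a different outcome at day 6 and day 12. At day 6, 7 of the 8 tested members passed the test, and 2 rose and 5 fell, where 34.3% of all tested genes were called, 18.6% up and 15.7% down. At day 12, 7 of 8 passed, with 2 up and 5 down (CDH3 among the 5, with a sign that depends on the scaling), where 67.7% of all genes were called, 34.7% up and 32.9% down. The share of members called at day 12 was thus near the background, since most genes were called. The members' median log2 fold change was -0.27 at day 6 and -0.35 at day 12, beside 0.0030 and 0.03 over all tested genes. A call here is an edgeR quasi-likelihood adjusted p under 0.05, adjusted over all tested genes. Log2 fold changes are given ± the standard error from the fit, while CPM, TPM, shares and ratios are given ± SD.

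**Figure D2:**
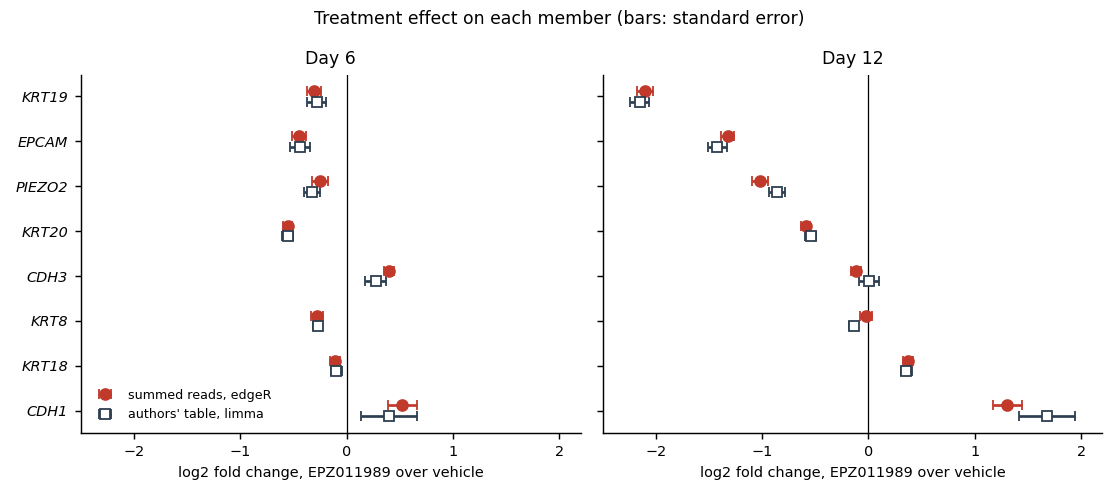
Log2 fold change of EPZ011989 over vehicle for each tested member at day 6 (left) and day 12 (right), from summed reads with edgeR (filled circles) and from the authors' normalized table with limma (open squares), with standard errors as bars. Both sources place KRT19, EPCAM, PIEZO2 and KRT20 below 0 and CDH1 above 0 at both days, while CDH3 at day 12 lay at -0.12 by summed reads and at 0.0057 in the authors' table.

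KRT20, the type I keratin that marks Merkel cells in skin, fell by 31.9% at day 6 and by 33.6% at day 12. At day 6 it stood at 232, 242 and 234 CPM in the treated libraries, against 339.5, 353 and 348 CPM in the vehicle libraries. At day 12 the treated libraries had 233, 221 and 210 CPM, against 328, 339 and 333 CPM in vehicle. The groups did not overlap at either day (50.7% of all tested genes did not overlap at day 6 and 69.2% at day 12), and the spread within each group was small. The log2 fold change was -0.56 ± 0.04 at day 6 (edgeR adjusted p = 6.16e-08) and -0.59 ± 0.04 at day 12 (edgeR adjusted p = 4.80e-09). The effects of the 2 days differed by -0.03 log2 with a 95% interval of -0.16 to 0.09 (edgeR adjusted p = 0.661).

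KRT20 lies on the minus strand of chromosome 17 (chr17:40875941-40885227, GRCh38, GENCODE v29). The transcript tables hold a reference copy and a haplotype copy of its mRNA, and both were summed. The haplotype copy took 58.9 to 76.2% of the gene's reads and the reference copy 23.7 to 41.1%, so a count on the reference copy alone misses most of the gene. Counted on the primary assembly alone, the day 12 change was -0.39 log2 (edgeR adjusted p = 0.0488). Summed over both copies, the reads came to 1.00 times the authors' own level for KRT20.

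Promoter windows were at hand for 3 members only, KRT8, KRT20 and PIEZO2. That of KRT8 held 2 CG dinucleotides, has its start site 19851 bases from the start of the main KRT8 transcript, and is not printed. The windows of KRT20 and PIEZO2 are printed because both genes fell at both days, and they stand at opposite ends of the promoter range in CG content. They are from RefSeq (GRCh38.p14), run from 250 bases before to 50 bases after the annotated start, and are written 5′ to 3′ on the gene's own strand, which is the minus strand for both. Capitals mark CG dinucleotides. The KRT20 window is chr17:40885193-40885492 and the PIEZO2 window is chr18:11149520-11149819.
KRT20: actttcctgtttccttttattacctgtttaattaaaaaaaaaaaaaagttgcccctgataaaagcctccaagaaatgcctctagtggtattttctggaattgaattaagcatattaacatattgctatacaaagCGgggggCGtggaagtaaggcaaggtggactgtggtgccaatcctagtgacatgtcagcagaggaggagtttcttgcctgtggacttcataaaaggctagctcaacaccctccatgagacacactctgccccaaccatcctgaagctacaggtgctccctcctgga
PIEZO2: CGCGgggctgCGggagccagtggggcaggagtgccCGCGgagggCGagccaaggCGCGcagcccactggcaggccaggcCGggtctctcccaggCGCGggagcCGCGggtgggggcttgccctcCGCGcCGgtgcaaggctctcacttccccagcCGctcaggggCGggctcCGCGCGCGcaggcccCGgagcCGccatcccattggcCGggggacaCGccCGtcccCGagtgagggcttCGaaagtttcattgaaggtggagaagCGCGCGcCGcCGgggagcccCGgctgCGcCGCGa

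The KRT20 window held 2 CG dinucleotides and 44.0% G and C. The PIEZO2 window held 38 CG dinucleotides and 76.7% G and C. Of the 35116 promoter windows of this length, 11% had fewer CG dinucleotides than that of KRT20 and 90.1% had fewer than that of PIEZO2, and the median was 14. The start site in the KRT20 window is 15 bases from the start of the reference KRT20 transcript. That in the PIEZO2 window is 807 bases from the start of ENST00000383408, the matched PIEZO2 transcript with the most reads. It held 28.5 to 62.8% of the matched PIEZO2 reads by library, and transcripts that were not matched are not covered. Both strands were searched for CAGNTG, the E-box bound by ATOH1 and other basic helix-loop-helix factors, for the SOX core ACAAAG and for the GATA core AGATAA. The KRT20 window held 1 CAGNTG and 1 ACAAAG, which 49.9% and 16.1% of all promoter windows hold. Neither window held AGATAA, which 10.3% of all windows hold, and the PIEZO2 window held none of the 3 motifs. These matches describe the letters in the window and no binding was measured.

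KRT8, the type II partner of the other simple keratins, was lower in treated cells at day 6 and close to vehicle at day 12. At day 6 it had 512, 529 and 541 CPM in the treated libraries, against 643, 629.7 and 649.8 CPM in vehicle, with no overlap. The log2 difference was -0.28 ± 0.05 (edgeR adjusted p = 0.000785). The values at day 12 were 570.1, 546 and 573 CPM in the treated libraries, against 509, 608 and 598 CPM in vehicle. Here replicate 1 of vehicle lay below the treated libraries while the other vehicle libraries lay above them. The day 12 difference was -0.02 log2, with a 95% interval of -0.14 to 0.09 (edgeR adjusted p = 0.728).

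The KRT8 call at day 12 changed with that 1 vehicle library. Without it the log2 fold change was -0.12 (edgeR adjusted p = 0.0080), and in the authors' table it was -0.14 (limma adjusted p = 0.0124) with all libraries. In that library 90.3% of KRT8 reads were assigned to the main transcript ENST00000293308, the lowest share of the 12 libraries, which reached up to 98.5%. The authors' normalized values at day 12 were 10270, 9738 and 10050 in the treated libraries, against 10950, 11500 and 10670 in vehicle. In this table the treated libraries lay below all vehicle libraries. KRT8 covers chr12:52897187-52949954 on the minus strand.

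KRT18, the usual type I partner of KRT8, rose at day 12 and did not pass at day 6. The treated libraries at day 6 had 97.9, 102 and 101 CPM, against 106.5, 112 and 106 CPM in vehicle. They lay slightly lower without overlap, and the difference was -0.11 ± 0.05 log2 with a 95% interval of -0.21 to -0.01 (edgeR adjusted p = 0.0929). At day 12 the treated libraries had 142, 138 and 141 CPM, against 105.5, 109 and 112 CPM in vehicle. All treated libraries were higher, 1.29 times on average, and the log2 difference was 0.37 ± 0.05 (edgeR adjusted p = 3.65e-06). Of the 4 tested keratin members it was the 1 that rose at either day.

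KRT18 lies on the plus strand at chr12:52948871-52952901 and overlaps the end of the annotated KRT8 span by 1084 bases on the opposite strand. The sources used here do not state whether reads were assigned by strand, so reads within the overlap could be shared. The main KRT8 transcript, with 90.3 to 98.5% of KRT8 reads, starts short of the overlap, so such sharing would concern other KRT8 transcripts. The main KRT18 transcript ENST00000388835 carried 84.6 to 98.2% of KRT18 reads. Adding the reads of annotated pseudogenes to either gene changed none of its calls.

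Pseudogenes of KRT8 and KRT18 took few reads. The 50 annotated KRT8 pseudogenes held 120 to 205 reads per library, which is 1.22 to 2.06% of the reads of KRT8 and its pseudogenes together. The 67 KRT18 pseudogenes held 53 to 83 reads, or 2.25 to 3.93%. The KRT8 pseudogenes with the most reads were KRT8P12, KRT8P33 and KRT8P46, whose transcripts were 86.1, 93.8 and 90.1% identical to KRT8 over the aligned bases. Those for KRT18 were KRT18P34, KRT18P5 and KRT18P7, at 90.0, 91.6 and 87.7% identity. At day 12 the pseudogene share for KRT18 was 2.25 to 2.87% in treated and 3.11 to 3.93% in vehicle cells.

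KRT19, the smallest type I keratin, had the largest change among the members, and most of it came after day 6. The treated libraries at day 6 had 67.7, 68.4 and 67.7 CPM, against 86.3, 83.9 and 81.65 CPM in vehicle. The treated values lay within 1 CPM of each other and below all vehicle values. By day 12 KRT19 was at 15.2, 18.98 and 18.6 CPM in the treated libraries, against 76.25, 78.2 and 71.7 CPM in vehicle. Vehicle cells thus had 4.28 times the level of treated cells. The log2 fold changes were -0.31 ± 0.07 at day 6 (edgeR adjusted p = 0.00258) and -2.10 ± 0.08 at day 12 (edgeR adjusted p = 1.13e-12). The gene lies at chr17:41523617-41528308, 638389 bases from KRT20 in the type I keratin cluster, and its main transcript ENST00000361566 carried 98.3 to 100% of its reads.

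KRT7, a type II keratin of ducts and glands, was at the edge of detection. Its reads were 7, 0 and 0 in treated and 2, 0 and 4 in vehicle libraries at day 6, and 3, 4 and 5 in treated and 0, 1 and 6 in vehicle libraries at day 12. That is 32 reads over 12 libraries, and most libraries were near the 3 reads that a count of 0 allows, so no fold is given.

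The makeup of the type I keratins differed between treated and vehicle cells. KRT18 made up 40.3 ± 0.842% of the summed KRT18, KRT19 and KRT20 TPM in treated cells at day 12, against 23.3 ± 0.623% in vehicle cells (SD, n = 3). At day 6 its share was 26.7 ± 0.240% in treated and 21.7 ± 0.396% in vehicle cells. The KRT19 share was 5.55 ± 0.675% in treated and 18.2 ± 1.26% in vehicle cells at day 12, and 19.9 ± 0.377% in treated and 18.5 ± 0.931% in vehicle cells at day 6. KRT20 remained the largest type I share in each group, at 54.2 ± 1.21% in treated and 58.5 ± 0.775% in vehicle cells at day 12. The summed type I level was 0.852 ± 0.0281 times that of KRT8 in treated cells at day 12 and 1.04 ± 0.0306 times in vehicle cells. At day 6 these ratios were 0.984 ± 0.0338 in treated and 1.07 ± 0.0398 in vehicle cells. With 3 libraries against 3, no exact permutation test of a share can go below p = 0.10, so none is given.

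**Figure D3:**
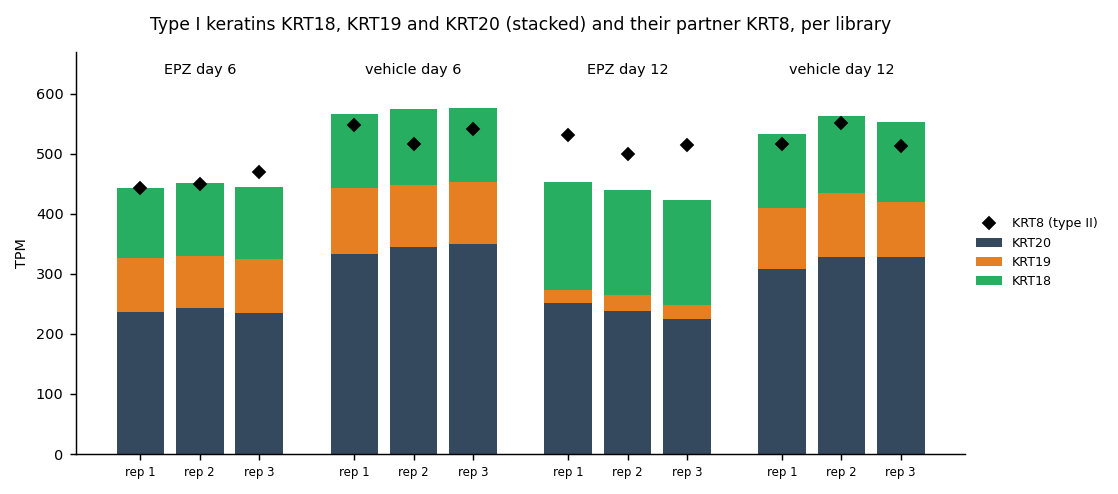
TPM of KRT20, KRT19 and KRT18 stacked in each library, with KRT8 as a diamond, for the EPZ011989 and vehicle groups at days 6 and 12. In treated cells at day 12 the KRT19 layer is thin (21.7 to 26.7 TPM), the KRT18 layer is thick (175 to 181 TPM), and KRT8 stands above the stack in each library.

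The adhesion members went in opposite directions. EPCAM, a homophilic adhesion protein of simple epithelia and carcinomas, fell at both days, and CDH1, which encodes E-cadherin, rose at both, at a low level. CDH3, which encodes P-cadherin, the cadherin of basal epidermis, rose at day 6.

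EPCAM at day 6 had 118, 112 and 103 CPM in the treated libraries, against 148, 152 and 156.5 CPM in vehicle. At day 12 the treated libraries had 64.05, 67.2 and 64.7 CPM, against 179, 156 and 157 CPM in vehicle. No treated library reached a vehicle library at either day, and replicate 1 of vehicle at day 12 was the highest. The log2 fold changes were -0.45 ± 0.06 at day 6 (edgeR adjusted p = 4.52e-05) and -1.32 ± 0.06 at day 12 (edgeR adjusted p = 4.08e-11), and without that library the day 12 call held. EPCAM lies at chr2:47345158-47387601.

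Per length, CDH1 was the lowest of the tested members in each group. At day 6 it had 12.8, 13.0 and 12.8 CPM in the treated libraries, against 8.61, 8.87 and 9.34 CPM in vehicle. At day 12 it had 26.8, 18.3 and 19.96 CPM in the treated libraries, against 8.11, 8.56 and 9.68 CPM in vehicle. All treated libraries lay above all vehicle libraries, and replicate 1 of the treated day 12 group was the highest. The log2 fold change was 0.52 ± 0.14 at day 6 (edgeR adjusted p = 0.00787) and 1.30 ± 0.14 at day 12 (edgeR adjusted p = 4.3e-07). The day 6 call was lost in the authors' table (0.40 log2, limma adjusted p = 0.301), while the day 12 call held there (1.68 log2, limma adjusted p = 8.05e-05). These changes rest on 128 to 529 reads per library. Per length the treated day 12 libraries were uneven, at 14.8, 6.93 and 14.2 TPM and at 616, 290 and 597 in the authors' table. The main transcript ENST00000261769 held 83.6 to 99.2% of the reads in that group, and the source of the unevenness was not tested.

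CDH3 had the opposite course to CDH1 after day 6. At day 6 it had 163, 159 and 162.5 CPM in the treated libraries, against 117, 128 and 122.6 CPM in vehicle. All treated libraries were higher, and the log2 difference was 0.40 ± 0.05 (edgeR adjusted p = 5.99e-06). At day 12 the treated libraries had 102, 103.5 and 105 CPM, against 112, 111 and 114 CPM in vehicle. The treated libraries averaged 0.921 of the vehicle level, and the log2 fold change was -0.12 ± 0.05 (edgeR adjusted p = 0.0340), but its sign turned to 0.0057 in the authors' table (limma adjusted p = 0.966) and to 9.42e-05 with transcript lengths as an offset.

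The CDH3 reads were divided over 3 transcripts of unequal length. The protein-coding transcripts ENST00000264012 and ENST00000429102 held 11.5 to 33.6% and 28.6 to 46.7% of the reads. ENST00000542274, annotated as a target of nonsense-mediated decay, held 24.0 to 42.8%, with a mean share of 39.5% in treated and 29.8% in vehicle cells at day 12. At day 6 the corresponding shares were 36.2% in treated and 38.0% in vehicle cells. The day 6 rise of CDH3 was 0.27 log2 in the authors' table and missed the threshold there (limma adjusted p = 0.0595). CDH3 (chr16:68636189-68722616) and CDH1 (chr16:68737225-68835548) are neighbours on the plus strand, 14608 bases apart.

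PIEZO2 fell at both days, with 0.841 of the vehicle level at day 6 and 0.492 at day 12. At day 6 its matched reads came to 193.5, 198 and 175 CPM in the treated libraries, against 239, 226 and 208.5 CPM in vehicle. At day 12 they came to 128, 123.03 and 105.5 CPM in the treated libraries, against 252, 251 and 223 CPM in vehicle. The groups did not overlap at either day. The log2 fold change was -0.25 ± 0.07 at day 6 (edgeR adjusted p = 0.0177) and -1.02 ± 0.08 at day 12 (edgeR adjusted p = 7.58e-09). The day 6 call was lost without replicate 1 or 2 of vehicle or replicate 3 of the treated group, where the log2 fold change ran to -0.20 (edgeR adjusted p of 0.0804, 0.0518 and 0.0898).

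The matched reads of PIEZO2 reached 0.506 of the authors' level, and 0.399 to 0.592 by library, so part of its transcripts is not in these sums. The sources used here do not state which transcripts the authors' own table sums. In that table the day 6 values were 6554, 6008 and 6344 in the treated libraries, against 7988, 8147 and 7523 in vehicle. At day 12 they were 5119, 4416 and 4806 in the treated libraries, against 9184, 9306 and 7608 in vehicle. The groups were separate at both days there too. Its log2 fold changes were -0.32 ± 0.08 at day 6 (limma adjusted p = 0.00717) and -0.86 ± 0.08 at day 12 (limma adjusted p = 3.30e-07). PIEZO2 spans 482280 bases at chr18:10666483-11148762 on the minus strand.

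The treatment effect differed between the days for 7 of 8 members, where 48.6% of all tested genes were called for such a difference, 22.7% up and 25.8% down. It was more negative at day 12 for KRT19 by 1.79, for EPCAM by 0.87, for PIEZO2 by 0.77 and for CDH3 by 0.52 on the log2 scale (edgeR adjusted p of 1.8e-09, 1.05e-06, 2.21e-05 and 8.78e-06). It was more positive at day 12 for CDH1 by 0.78, for KRT18 by 0.47 and for KRT8 by 0.26 (edgeR adjusted p of 0.00351, 2.40e-05 and 0.0106). The KRT8 difference was lost without replicate 1 of the treated day 6 group (edgeR adjusted p = 0.0518), and was 0.16 without replicate 1 of vehicle at day 12 (edgeR adjusted p = 0.0147). In the authors' table the KRT8 and CDH3 differences were lost, at 0.13 and -0.26 log2 (limma adjusted p of 0.104 and 0.151), and that of CDH1 was 1.28 log2 (limma adjusted p = 0.0148). With transcript lengths as an offset the KRT8 and CDH3 differences were also lost, at 0.11 and -0.29 log2 (edgeR adjusted p of 0.17 and 0.1285), and that of CDH1 was 1.35 log2. The offset and the authors' table are not separate checks, since both correct for transcript length. KRT20 was the member with no detected difference.

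Culture time alone was compared between day 12 and day 6 in vehicle. There 0 of 8 members passed edgeR, 3 of them had an unadjusted p under 0.05 and DESeq2 called 1, where 15.0% of all tested genes passed edgeR, 7.54% up and 7.46% down. KRT8 was at 572 ± 54.7 CPM at day 12 and 641 ± 10.2 CPM at day 6 (-0.16 ± 0.05 log2, edgeR adjusted p = 0.0522). That difference was -0.09 log2 without replicate 1 of vehicle at day 12 (edgeR adjusted p = 0.174) and -0.03 log2 in the authors' table (limma adjusted p = 0.708). KRT20 differed by -0.06 log2 with a 95% interval of -0.15 to 0.03. EPCAM differed by 0.11 log2, which was 0.04 without that library and 0.23 in the authors' table (limma adjusted p = 0.178). PIEZO2 also differed by 0.11 log2, and by 0.14 in the authors' table (limma adjusted p = 0.337). CDH3 differed by -0.12 log2 (edgeR adjusted p = 0.0798), and by -0.27 in the authors' table (limma adjusted p = 0.1555).

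Over the 12 libraries the members fell into a set that moved with EPCAM and a set that moved against it. Log2 CPM of EPCAM had a Pearson r of 0.970 with PIEZO2, 0.936 with KRT19 and 0.882 with KRT20, and of -0.969 with CDH1 and -0.784 with KRT18. KRT8 and CDH3 stood outside, with r of 0.294 and 0.223 to EPCAM. These values describe 12 libraries that share 4 groups, and most of them reflect the difference between the groups.

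Among 13551 other genes with at least 1 CPM, the patterns most like that of KRT20 were those of IGHG1 (r = 0.992), CAV3 (0.989) and CBFA2T2 (0.985). For EPCAM they were DDB2, NUP93 and EPB41 (0.995, 0.995 and 0.994), and for PIEZO2 CNTRL, BEST3 and ANKRD50 (0.993, 0.993 and 0.991). CDH1 was most like TMEM74B, NALCN and MYOF (0.984, 0.982 and 0.980), and CDH3 most like AKAP13, COL25A1 and CNPY1 (0.978, 0.974 and 0.968). KRT8 was most like BRAT1, ARHGAP23 and RHBDD2 (0.936, 0.935 and 0.929), and KRT18 and KRT19 were not searched. These are Pearson correlations of log2 CPM over 12 libraries, and they compare the pattern and not the size of a change. At day 12 TMEM74B, NALCN and MYOF rose by 5.09, 9.97 and 4.84 log2, against 1.30 for CDH1. DDB2 and NUP93 were closer in size to EPCAM, at -1.37 and -1.27 log2 against -1.32.

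The remaining keratins were few and low. Of 32 other keratin genes 6 had enough reads to be tested, and at day 6 0 passed edgeR (0 rose and 0 fell, with 1 called without the day 12 vehicle replicate 1). At day 12 0 rose and 2 fell, with a median of -0.67 log2 beside 0.03 over all genes. Of all tested genes 18.6% were called up and 15.7% down at day 6. At day 12 these shares were 34.7% up and 32.9% down, so the 2 of 6 that fell were near the background. Of those 2, KRT15, a type I keratin of basal keratinocytes, was at 0.996 CPM in treated and 3.46 CPM in vehicle cells (-1.78 ± 0.28 log2, edgeR adjusted p = 4.01e-05). The other, KRT24, was at 0.381 CPM in treated and 1.43 CPM in vehicle cells (-1.89 ± 0.58 log2, edgeR adjusted p = 0.00905). KRT12 and KRT80 did not pass, at -0.52 and -0.68 log2 (edgeR adjusted p of 0.192 and 0.202).

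Other intermediate filament and linker genes moved both ways. Of 18 tested, 5 rose and 7 fell at day 6, and 6 rose and 7 fell at day 12, and without replicate 1 of the day 12 vehicle group 8 fell at day 6 and 5 rose at day 12. These counts and those of the lists after them stand beside 18.6% up and 15.7% down of all tested genes at day 6, and 34.7% up and 32.9% down at day 12. DST, the dystonin linker, was at 407.5 ± 27.9 CPM in treated and 36.6 ± 4.11 CPM in vehicle cells at day 12 (3.48 ± 0.08 log2, edgeR adjusted p = 8.53e-15), and PLEC, which encodes plectin, rose by 1.58 ± 0.08 log2. LMNB1, which encodes the nuclear lamin B1, was at 161 ± 12.8 CPM in treated and 564 ± 10.6 CPM in vehicle cells at day 12, and SYNM, which encodes synemin, fell by 0.85 ± 0.04 log2. VIM, the vimentin gene of mesenchymal cells, stayed low, at 0.592 CPM in treated and 0.919 CPM in vehicle cells at day 12. It was named after its values were seen, and its log2 difference of -0.62 had a 95% interval of -2.10 to 0.86.

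Junction genes also divided. Of 8 desmosome genes 5 rose and 2 fell at day 6 and 3 rose and 3 fell at day 12 (medians of 0.30 and -0.05 log2). DSP, which encodes desmoplakin, the protein that anchors keratin filaments at desmosomes, was at 134 ± 2.18 CPM in treated and 64.2 ± 1.34 CPM in vehicle cells at day 6, and at 117 ± 6.81 CPM in treated and 64.5 ± 0.494 CPM in vehicle cells at day 12. DSG2, which encodes the desmosomal cadherin of simple epithelia, did not pass at day 6 (-0.03 log2) and fell at day 12 to 8.84 ± 2.60 CPM in treated cells, against 41.4 ± 2.26 CPM in vehicle cells. The plakophilin genes divided as well, with PKP4 at 0.84 and PKP3 at -1.56 log2 at day 12.

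Of 11 partners of the adherens junction 3 rose and 4 fell at day 6 and 4 rose and 4 fell at day 12, with medians of -0.05 and 0.04 log2, and 5 rose at day 12 without replicate 1 of that day's vehicle group. NECTIN1, a cell adhesion receptor, rose to 230.1 ± 13.7 CPM in treated cells at day 12, against 36.5 ± 3.19 CPM in vehicle cells. Among the catenins that bind cadherin tails, CTNND2 rose by 1.47 and ARVCF by 0.71 log2 at day 12, and AFDN, an actin linker, fell by 0.23 log2. CTNNB1, which encodes beta-catenin and was named after its values were seen, did not pass at day 12 (0.04 log2, 95% interval -0.06 to 0.13). Of 11 other classical cadherins 5 rose and 3 fell at both days, and 2 fell at day 12 without that library. CDH15 rose to 173 ± 4.84 CPM in treated cells at day 12, against 3.07 ± 0.736 CPM in vehicle cells, and CDH22 and CDH11 rose by 3.76 and 3.35 log2, while CDH24 fell by 1.31 log2. CDH2, which encodes N-cadherin and was also named after its values were seen, was at 201 ± 6.35 CPM in treated and 258 ± 12.0 CPM in vehicle cells at day 12 (-0.36 log2, edgeR adjusted p = 1.73e-05).

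Of 20 tight junction and polarity genes 10 rose and 3 fell at day 6 (34.3% of all tested genes called) and 9 rose and 3 fell at day 12 (67.7% of all called), with medians of 0.21 and 0.28 log2. Without replicate 1 of vehicle at day 12, 8 rose at day 12. The claudin genes CLDN9 and CLDN4 rose by 2.19 and 2.07 log2 at day 12, and PRKCI, which encodes a polarity kinase, fell by 0.46 log2.

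Among 11 epithelial transcription and splicing factors 2 rose and 4 fell at day 6 (18.6% up and 15.7% down of all tested genes) and 3 rose and 7 fell at day 12 (34.7% up and 32.9% down of all), with medians of -0.32 and -0.76 log2. Without replicate 1 of vehicle at day 12, 3 rose at day 6 and 2 at day 12. ESRP1, a splicing factor of epithelial cells, was at 16.5 ± 1.13 CPM in treated and 89.2 ± 2.50 CPM in vehicle cells at day 12 (-2.44 ± 0.06 log2, edgeR adjusted p = 3.85e-14). Its paralogue ESRP2 fell by 1.17 log2, and the AP-2 genes TFAP2B and TFAP2A fell by 1.06 and 0.51 log2. Of 6 transcription factors of the epithelial-mesenchymal transition 3 rose and 0 fell at day 6, and 4 rose and 1 fell at day 12. The faller was SNAI1, which was named after its values were seen, and it was lost without replicate 1 of the day 12 vehicle group. ZEB2, a repressor that binds E-boxes, was at 7.45 ± 1.33 CPM in treated and 1.09 ± 0.437 CPM in vehicle cells at day 12, and SNAI3, TWIST1 and TCF4 rose by 2.65, 1.36 and 0.21 log2.

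**Figure D4:**
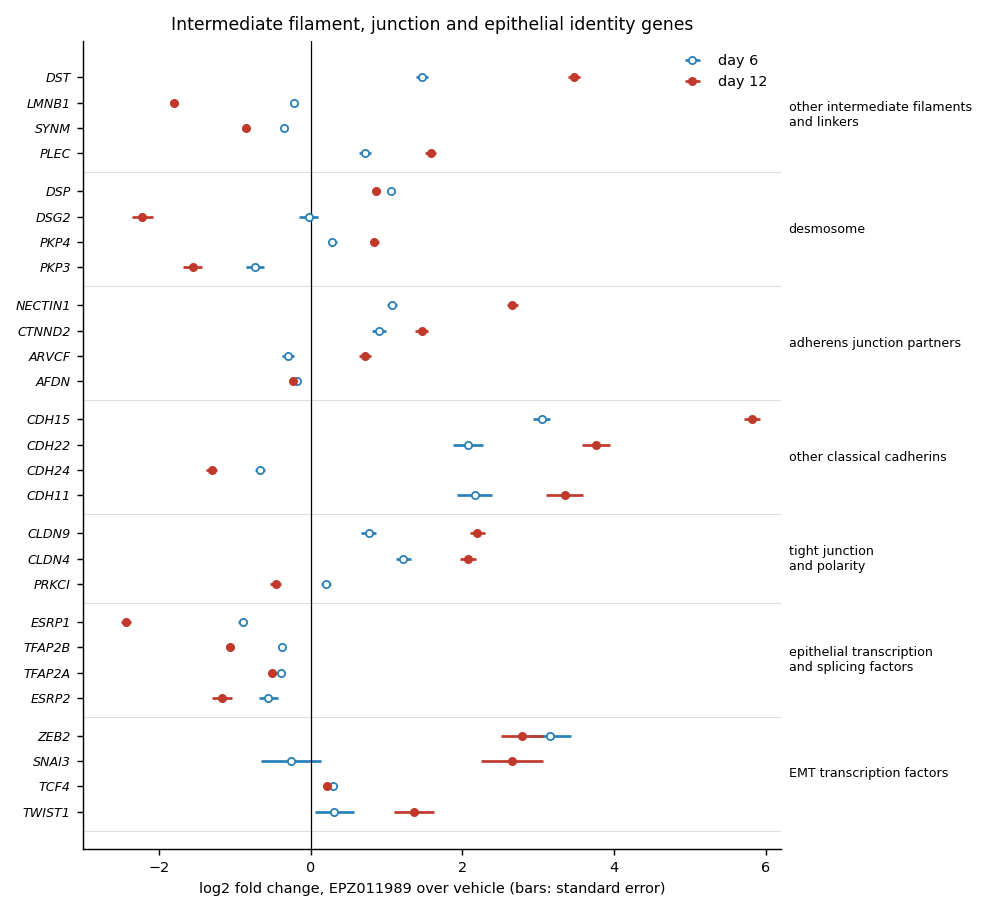
Log2 fold change of EPZ011989 over vehicle at day 6 (open blue) and day 12 (filled red) for up to 4 genes per list, with standard errors as bars. DST and PLEC lie right of 0 at both days, and DSG2 lies at -0.03 at day 6 and -2.22 at day 12. The 4 epithelial factors shown lie left of 0 at both days, while 3 of the 11 tested rose at day 12.

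Of 17 other genes of mechanosensory channels and touch 9 rose and 1 fell at day 6 (18.6% up and 15.7% down of all tested genes) and 9 rose and 2 fell at day 12 (34.7% up and 32.9% down of all), with medians of 0.49 and 0.65 log2. Without replicate 1 of vehicle at day 12, 3 fell at day 12. STOM, which encodes stomatin, a membrane protein that modulates mechanosensitive channels in mice, was at 30.4 ± 2.27 CPM in treated and 0.457 ± 0.124 CPM in vehicle cells at day 12. TMEM63C and TMEM150C rose by 2.08 and 2.67 log2 at day 12. ASIC2, an acid-sensing channel gene, had 1496 reads over the treated and 3 over the vehicle libraries at day 12, a ratio of 430 (95% counting interval 147 to 2090). PIEZO1, the paralogue of PIEZO2, was named after its values were seen. It was at 2.95 ± 0.882 CPM in treated and 2.84 ± 0.179 CPM in vehicle cells at day 12 (0.05 log2, 95% interval -0.57 to 0.67).

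Among the 9 Merkel markers, which include KRT20, 1 rose and 6 fell at day 6 and 2 rose and 5 fell at day 12, with medians of -0.46 and -0.18 log2, and 7 fell at day 6 without replicate 1 of vehicle at day 12. ISL1, a homeobox factor of Merkel cells, was at 199 ± 7.16 CPM in treated and 376 ± 23.6 CPM in vehicle cells at day 12 (-0.92 ± 0.05 log2), and the neurofilament gene NEFM fell by 0.87 log2. CHGA, which encodes the granule protein chromogranin A, was at 374 ± 21.4 CPM in treated and 182 ± 27.9 CPM in vehicle cells at day 12 (1.04 ± 0.08 log2). SYP, which encodes a synaptic vesicle protein, rose by 0.70 log2 at day 12. INSM1 and SOX2, which encode transcription factors, fell by 0.64 and 0.18 log2 at day 12. ATOH1 and POU4F3 did not pass at day 12, at 0.06 and 0.03 log2 (edgeR adjusted p of 0.226 and 0.424). SYP, INSM1, SOX2, ATOH1 and POU4F3 were named here after their values were seen.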

How the data were processed

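Polyadenylated RNA of 12 MKL-1 libraries was measured. The deposited transcript tables hold estimated counts (Salmon's expected counts), effective lengths and TPM, and the authors also deposited a table of normalized gene signal whose scaling the sources used here do not state. Per the submitters' processing notes the tools were FastQC, Salmon 1.2.0 and DESeq2 with hg38. Of 179883 transcripts 174159 (96.8%) were matched by identifier to GENCODE v29 genes, 5979 of them, haplotype and patch copies, through its HGNC table. The unmatched rest held 1.64 to 1.97% of reads. Estimated counts were summed per gene and rounded.

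Genes were kept by filterByExpr and scaled by TMM. A two-sided quasi-likelihood test of edgeR 4.0.16 (R 4.3.3) was fitted to the 4 groups of all 12 libraries, with p-values Benjamini-Hochberg adjusted over 15063 genes, with a threshold of 0.05. Limma 3.58.1 was run on log2(authors' value + 1), for genes with a mean of at least 10, and such fold changes understate changes of low genes. Other alternatives were DESeq2 1.42.0 as test and as size factors, library totals, other filters, transcript length as an offset, only the libraries of a contrast, a threshold of 0.01, a pseudocount of 5, pseudogene reads added, the replicate number as a block, and each library left out. Primary assembly transcripts only, and counts of each list with vehicle replicate 1 of day 12 left out, were chosen after seeing the data. Counting intervals and floors cover counting error only.

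The members and lists were chosen with earlier results of these data known. Named genes are the 9 members, up to 4 tested genes per list with the smallest day 12 p, the 3 genes most like each of 6 members, EZH2, and the 3 pseudogenes of KRT8 and of KRT18 with the most reads. Others are marked as named after their values were seen, and 1 gene that this rule names is not reported here.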

Additional observations from a re-analysis of the deposited data

Results flagged for a closer look

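For 7 of 8 tested members the treatment effect at day 12 differed from that at day 6 by edgeR's test of the difference itself. That call, adjusted over all genes, is why they are listed here, and 48.6% of all tested genes received it. Effect at day 12 minus effect at day 6, on the log2 scale, was -1.79 for KRT19, -0.87 for EPCAM, -0.77 for PIEZO2 and -0.52 for CDH3. It was 0.78 for CDH1, 0.47 for KRT18 and 0.26 for KRT8. The CDH3 and KRT8 differences were lost in the authors' table (limma adjusted p of 0.151 and 0.1045). They were also lost with transcript lengths as an offset (edgeR adjusted p of 0.1285 and 0.17), which is not a separate check from that table. The treated libraries at day 12 stood at 15.2 to 18.98 CPM of KRT19, against 71.7 to 78.2 CPM in vehicle. Both treatment effects use libraries of their own day, so they share no control. Groups of 3 libraries were too small for a test of single outlying libraries.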

How the results depend on the processing

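Over the 4 contrasts, the 8 tested members kept their call in 404 of 440 comparisons with another setting and in 372 of 384 with a library left out. A change of sign was counted only where either fit called the gene. The uncalled KRT20 difference between days ran from -0.07 to 0.01 log2 with a library left out. Some comparisons could hardly change, since added pseudogene reads concern KRT8 and KRT18 only and some left-out libraries lay outside the contrast. The 4 reversals so counted were all of CDH3 at day 12. They ran to 9.42e-05 log2 with transcript lengths as an offset. With limma on the authors' table they ran to 0.00569, 0.00567 and 0.00569, at pseudocounts of 1, of 5 and of 1 without a filter. The CDH3 call at day 12 was also lost with library totals (-0.06 log2), with the libraries of the contrast alone and in 4 leave-one-out fits. At day 6, 5161 genes were called, against 3344 with the length offset, 3251 with limma without a filter and 3436 at a threshold of 0.01, and 7 members were called, against 4 with the length offset, where CDH1, CDH3 and PIEZO2 were lost (edgeR adjusted p of 0.319, 0.0511 and 0.0956). KRT18 passed at day 6 with DESeq2 (adjusted p = 0.0418) and on primary assembly transcripts (edgeR adjusted p = 0.0377). Between days in vehicle, 2258 genes were called, against 156 with the libraries of the contrast alone, 96 with the length offset, 153, 160 and 63 with limma (pseudocounts of 1, 5 and 1 without a filter), 285 at 0.01 and 281 to 4314 with a library left out. The members called there were 0, against 1 with the DESeq2 test, a stricter filter, no low-count filter and the replicate block, and 0 to 1 with a library left out. That member was KRT8, or CDH3 without replicate 1 of the day 6 vehicle group. The cause of these changes was not tested.

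Replicate numbers do not pair the libraries. Deviations of same-numbered libraries correlated at -0.07 to 0.147 over 18 pairs, 2 of them above 0.1, and 6 of 12 libraries correlated best with their own number. With the replicate block 5208 genes were called at day 6, 10233 at day 12, 7366 for the difference between days and 2612 between days in vehicle, with 7, 7, 7 and 1 members among them. Replicates differed beyond sampling noise in each group (chi-square per gene of 3.45 to 17.5), so none was counted as a repeat of another.

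Depth limits KRT7, with 0 to 7 reads per library, and to a lesser degree CDH1. PIEZO2 is covered in part by the summed reads. The CDH3 and KRT8 calls at day 12 changed when transcript lengths entered as an offset, and the sources used here do not state how the authors' table was scaled. The offset and that table gave close estimates for KRT8 at day 12 (-0.1417 and -0.1398 log2) and for CDH1 at day 6 (0.3984 and 0.3977 log2). For KRT8 in vehicle cells at day 12, the authors' values of 10950, 11500 and 10670 went with 516, 551 and 512 TPM. The CPM values there were 509, 608 and 598. For CDH1 in treated cells at day 12, 616, 290 and 597 went with 14.8, 6.93 and 14.2 TPM. The authors' values for these genes thus followed TPM, which is scaled by length, so the offset and that table are not separate checks.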
